A study of Mus musculus with 6 samples.

Results

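Rab GTPases are small G proteins that give each membrane compartment of a cell its identity and steer vesicles between compartments. Guanine nucleotide exchange factors (GEFs) load them with GTP, GTPase-activating proteins (GAPs) return them to the GDP form, and prenylation together with dissociation inhibitors lets them cycle on and off membranes. In adipocytes, Rab10 and its GAP Tbc1d4 are known for insulin-stimulated delivery of the glucose transporter GLUT4 to the cell surface, and Rab18 for its place on lipid droplets.

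The Rab genes were taken by name. All 57 of the 22609 listed gene symbols made of Rab, a number and at most a letter were kept. A digit could follow the letter, as in Rab7l1. Rab-like genes such as Rabl3 were not kept. The study asked how overexpression of miR-182-5p changes the transcriptome of primary cultured adipocytes from mouse inguinal white adipose tissue (iWAT). Per the labels, stromal vascular cells were isolated from the inguinal fat of male C57BL6 mice aged 3 weeks and were differentiated in culture. The 3 control samples received a control vector and the 3 miR182 samples received miR182, by electroporation according to the labels. The study's methods for primary adipocytes instead describe a lipid reagent and a synthetic mimic, and a different age. Strain, sex, age and culture were the same in both groups, and the labels name no other allele or agent. They do not say whether samples of a group came from separate cultures or animals, so the p-values measure the spread between these samples, which may be technical.

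Stranded poly(A) libraries held 25869810 to 26484794 reads on genes in the control group and 25960631 to 28796712 in the miR182 group. Rab genes took 0.286 to 0.2915% of these reads in control and 0.2825 to 0.2885% in miR182 samples. The first principal component, with 64.4% of the variance, separated the groups. The row for the Mir182 gene held 0 reads in all 6 samples, and since such libraries do not capture mature miRNAs, no value here checks the delivery of the miRNA. Levels of a gene are given in CPM, its counts scaled to a common library size. The labelled cell type showed its markers: all 9 adipocyte genes checked were measured, with Adipoq at 906 to 946 CPM in control samples and 616 to 727 CPM in miR182 samples. Stromal markers were expressed as well. The 7 checked summed to 19803 to 20880 CPM in control and 18816 to 19636 CPM in miR182 samples, most of it Col1a1.

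The miRNA and the sites that its seed matches in the Rab genes with the largest decreases, or with the longest match, are shown first, because the sites are referred to beside the values. The sequence is the mature mmu-miR-182-5p of RefSeq (GRCm38.p6, chr6:30165962-30165986, minus strand), with the seed, bases 2 to 8, in capitals. The string that the study's methods print for the miRNA differs from this entry.
mmu-miR-182-5p: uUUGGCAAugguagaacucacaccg
The next lines give sites in the annotated 3′-untranslated regions (3′-UTRs) of GENCODE M21 (GRCm38), each with the 15 bases before it and with the match in capitals. The forms searched, on the transcript strand, were the 8-mer TTGCCAAA, the 7-mer TTGCCAA (here m8) and the 7-mer TGCCAAA (here A1); the 8-mer contains both others, and each gene was counted once, under its longest match, with m8 before A1. The first 4 lines are all the 8-mers found in Rab genes that passed the expression filter, and the last 3 are sites in genes that fell by at least 1.5-fold. These are Rab6b (chr9:103181473-103181495, plus strand), Rab10 (chr12:3248012-3248034, minus), Rab1b (chr19:5099670-5099692, minus), Rab21 (chr10:115289060-115289082, minus), Rab34 (chr11:78192008-78192029, plus), Rab32 (chr10:10546078-10546099, minus) and Rab15 (chr12:76799007-76799028, minus).
Rab6b: tgtactttattaagaTTGCCAAA
Rab10: tagtaaaaagcagcaTTGCCAAA
Rab1b: ggcggaaggcccaccTTGCCAAA
Rab21: gtttacttattggccTTGCCAAA
Rab34: tgcccccaggcaccaTGCCAAA
Rab32: aggctcttgtcatacTGCCAAA
Rab15: atttctaagtcggctTTGCCAA

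Of the 57 Rab genes, 49 passed the filter on low counts and were tested. The other 8, Rab17, Rab19, Rab25, Rab26, Rab37, Rab39, Rab3c and Rab9b, had at most 7 reads in any sample, and Rab17, an epithelial Rab, had 0 in all 6. No Rab gene passed the filter through one group alone.

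The Rab genes changed in both directions, but those past both the adjusted p and a 1.5-fold change were all decreases. In the quasi-likelihood test of edgeR, 32 of the 49 (65.3%) had a Benjamini-Hochberg adjusted p under 0.05, against 46.7% of all 13117 genes tested. Of these, 17 were higher in miR182 samples (34.7%, against 23.2% of all genes) and 15 were lower (30.6%, against 23.5% of all genes). The 17 increases had a median log2 fold change of 0.18, and the 15 decreases a median of -0.44. Only 11 Rab genes passed as higher without control replicate 1. In all, 23 of the 32 passed in each of the 6 fits that left out 1 sample; the other 9, all with small or low-level changes, were Rab18, Rab20, Rab21, Rab22a, Rab23, Rab24, Rab30, Rab35 and Rab36. Rab22a did not pass without control replicate 1, and Rab35 without control replicate 2, control replicate 3 or miR182 replicate 2. The groups did not overlap in CPM for 37 of the 49 (75.5%, against 54.8% of all genes).

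With a 1.5-fold change required as well, 6 Rab genes were left (12.2%, against 7.45% of all genes). All 6 were lower, Rab34, Rab32, Rab27a, Rab38, Rab15 and Rab6b (background for decreases 5.48%). The count of increases was 0 (background 1.97%), and it was also 0 with the unadjusted p under 0.05, with DESeq2 and with limma-voom. Rab44, at 2 to 19 reads a sample, was 1.68-fold higher by edgeR but did not pass (log2 fold change 0.75 ± 0.51, adjusted p = 0.248). The median log2 fold change of the 49 genes was 0.04, beside -0.0043 over all genes, and the median size without sign was 0.18, beside 0.16.

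**Figure D1:**
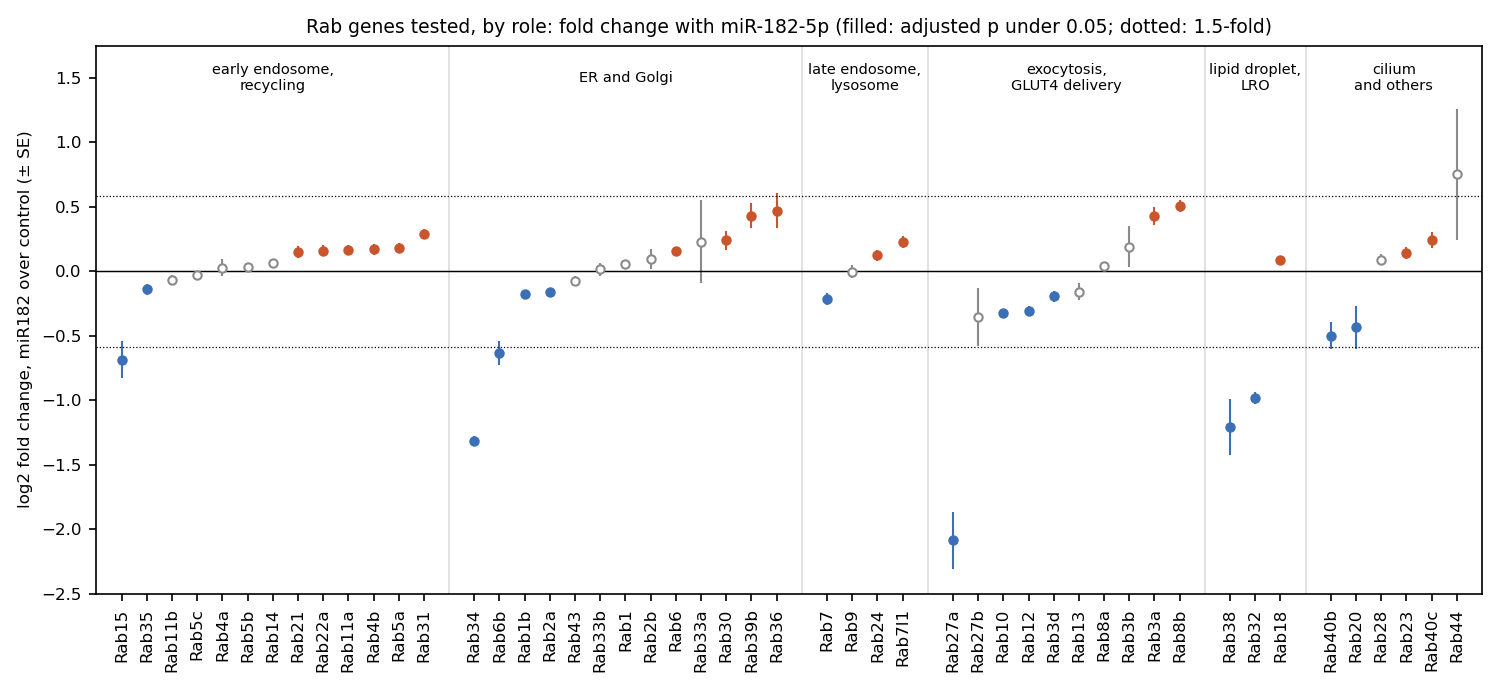
Log2 fold change (miR182 over control) of the 49 tested Rab genes with its standard error, sorted within 6 role groups; LRO stands for lysosome-related organelle. Filled points had an adjusted p under 0.05 (orange higher, blue lower), open points did not, and the dotted lines mark 1.5-fold. The filled points beyond the dotted lines are 6 decreases, from -0.64 for Rab6b to -2.09 for Rab27a.

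Rab34, a Golgi-associated Rab known for positioning lysosomes and for building cilia, was among the most abundant Rab transcripts in control cells and lost more than any other abundant one. It stood at 153, 147 and 146 CPM in the control samples and at 57.1, 60.7 and 61.1 CPM in the miR182 samples, so the groups lay far apart. The decrease was 2.49-fold (log2 fold change -1.32 ± 0.035 (SE), adjusted p = 3.41e-12). The gene lies at chr11:78188430-78192193 (GRCm38, plus strand), and its 3′-UTR of 352 bases carries the A1 site printed above.

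Rab32 and Rab38 are close relatives that act in the formation of lysosome-related organelles such as melanosomes, and Rab32 is also found at mitochondria. Both fell. Rab32 (chr10:10545002-10558265, minus strand) read 46.7, 47.7 and 48.2 CPM in control and 24.4, 24.1 and 23.8 CPM in miR182 samples, a 1.97-fold decrease with very little spread (log2 fold change -0.98 ± 0.045, adjusted p = 7.7e-10). Rab38 (chr7:88430273-88491572, plus strand) was much lower, at 46, 66 and 51 reads in control and 25, 19 and 32 reads in miR182 samples. The groups did not overlap, and the log2 fold change was -1.21 ± 0.22 (adjusted p = 0.000404). Rab32 has 1 A1 site and Rab38 has no match in its 3′-UTR.

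Rab27a, which docks secretory vesicles and exosome-bearing endosomes at the plasma membrane, had the largest decrease of any Rab gene tested. It was a low transcript, with 79, 55 and 68 reads in control and 15, 17 and 19 reads in miR182 samples. The highest miR182 sample therefore had under 1 CPM (0.673), while the lowest control had 2.11 CPM. The decrease was 4.25-fold (log2 fold change -2.09 ± 0.22, adjusted p = 3.24e-06). The gene lies at chr9:73044854-73097629 (plus strand), shares 149 exonic bases with Gm27186 on the same strand, and has no seed match in its 3′-UTR.

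Rab6b and Rab15 were the remaining members past 1.5-fold, and both sat close to that line. Rab6b, the Golgi Rab known mainly from neurons (chr9:103111787-103185276, plus strand), read 11.9, 11.6 and 10.7 CPM in control and 6.3, 7.7 and 8.0 CPM in miR182 samples (log2 fold change -0.64 ± 0.095, adjusted p = 7.98e-05). Rab15, a Rab of early and recycling endosomes (chr12:76797960-76822908, minus strand), read 4.4, 3.48 and 3.64 CPM in control and 2.64, 2.2 and 2.3 CPM in miR182 samples (log2 fold change -0.69 ± 0.14, adjusted p = 0.00129). Neither pair of groups overlapped. Rab6b was under 1.5-fold without miR182 replicate 1, and Rab15 without control replicate 1; both kept an adjusted p under 0.05.

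**Figure D2:**
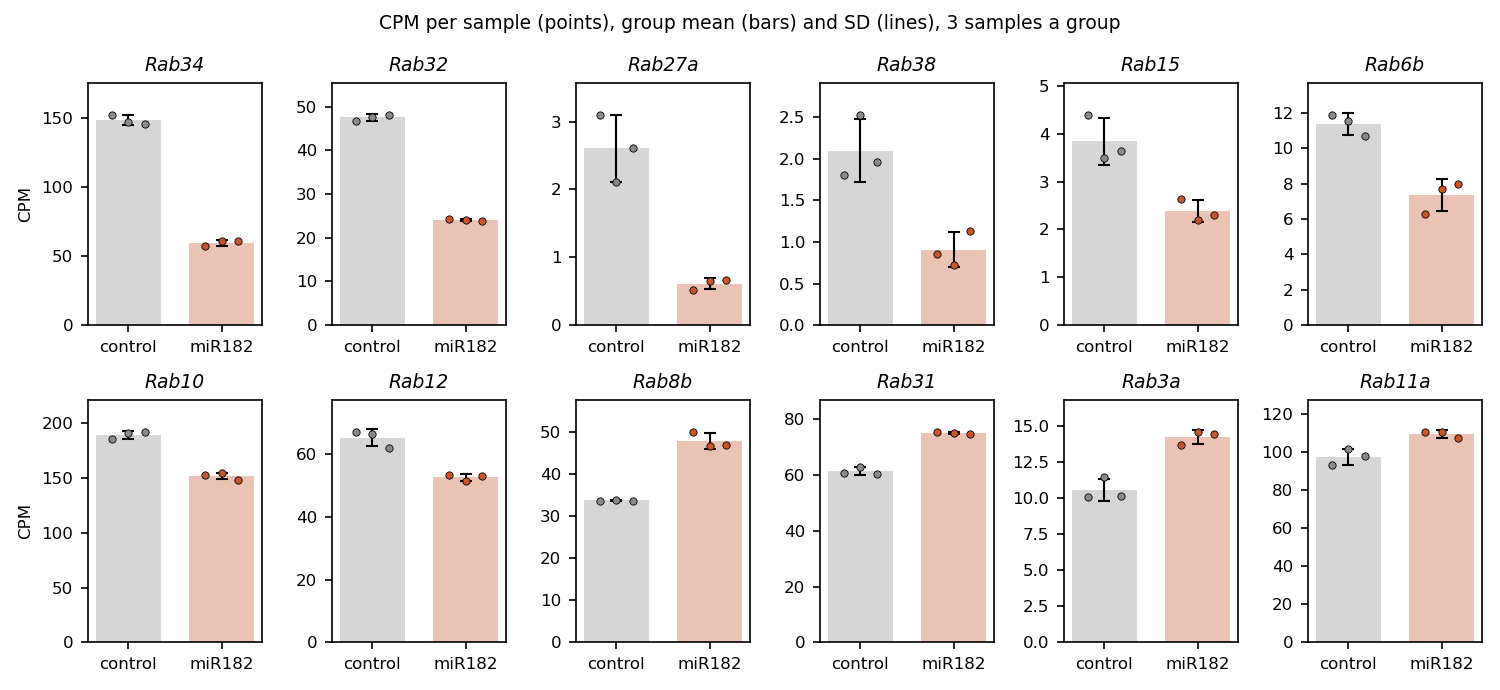
CPM of 12 Rab genes in each of the 6 samples (points), with the group mean (bar, axis from 0) and SD (line), 3 samples a group. The upper row holds the 6 genes lower by at least 1.5-fold, such as Rab34 at 149 CPM in control and 59.7 CPM in miR182 samples; in the lower row Rab10 and Rab12 fell and Rab8b, Rab31, Rab3a and Rab11a rose by less.

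Among the Rab genes of exocytosis and GLUT4 delivery, 10 were tested, 4 fell (40%, beside 23.5% of all genes) and 2 rose (20%, beside 23.2%). Rab10, the Rab best known for bringing GLUT4 vesicles to the adipocyte surface, read 185, 191 and 192 CPM in control and 153, 154 and 148 CPM in miR182 samples. All 3 miR182 values lay below all 3 control values, and the log2 fold change was -0.32 ± 0.029 (adjusted p = 7.05e-07). Its 3′-UTR holds an 8-mer, and 143 of its exonic bases lie opposite the antisense gene Rab10os. Rab12 was counted in this group and is 1 of the 4 that fell, although it acts between recycling endosomes and lysosomes. It fell by a similar amount, from 65.1 ± 2.71 to 52.6 ± 1.03 CPM (SD, n = 3; log2 fold change -0.31, adjusted p = 3.25e-05). Rab3d, a secretory granule Rab found in adipocytes, fell from 84.0 ± 1.82 to 73.4 ± 3.65 CPM (log2 fold change -0.20, adjusted p = 0.00101).

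Rab8b, which works in vesicle transport to the plasma membrane and the primary cilium, made the most certain increase. It read 33.7, 34.0 and 33.8 CPM in control and 50.1, 46.7 and 47.1 CPM in miR182 samples, with no overlap. This was a 1.42-fold increase (log2 fold change 0.51 ± 0.046, adjusted p = 7.24e-07). Rab8a, the paralog also implicated in GLUT4 transport in muscle, stood at 76.0 ± 1.96 and 78.1 ± 1.57 CPM (log2 fold change 0.04 ± 0.035, adjusted p = 0.373), and its groups overlapped. Rab3a, the synaptic vesicle Rab, rose from 10.1, 11.5 and 10.2 CPM to 13.7, 14.6 and 14.5 CPM (log2 fold change 0.43, adjusted p = 0.000275). Rab13, a Rab of cell junctions and of GLUT4 transport in muscle, did not pass (log2 fold change -0.16, adjusted p = 0.0558), although all its miR182 values, up to 20.6 CPM, were under the lowest control of 21.1 CPM; it passed without control replicate 2 or miR182 replicate 1.

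The 13 tested Rab genes of early endosomes, recycling and the plasma membrane included 6 that passed as higher (46.2%, beside 23.2% of all genes), 2 as lower (15.4%, beside 23.5%) and 5 that did not pass. Rab31, which acts between the trans-Golgi and endosomes and has been linked to GLUT4 retention, rose from 60.8, 63.0 and 60.4 CPM to 75.5, 75.1 and 74.9 CPM (log2 fold change 0.29 ± 0.035, adjusted p = 1.07e-05). Rab5a, the early endosome Rab, rose from 47.0 ± 0.404 to 53.3 ± 1.52 CPM (log2 fold change 0.18, adjusted p = 0.0024). Rab11a, the recycling endosome Rab, rose from 97.4 ± 4.24 to 109 ± 1.9 CPM (log2 fold change 0.17, adjusted p = 0.00143). Each of these 3 was above every control in every miR182 sample, yet none rose by more than 1.22-fold. Rab4b, a fast recycling Rab, also passed (log2 fold change 0.17, adjusted p = 0.00354), but 1368 of its 1970 annotated exonic bases are shared with Gm21983 and Mir3101 on its strand, so its reads are uncertain. Rab4a, its paralog, and Rab14, of the Golgi and recycling endosomes, did not pass (log2 fold changes 0.03 and 0.07, adjusted p = 0.752 and 0.112), and their groups overlapped.

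Of the 13 tested Rab genes of the endoplasmic reticulum and Golgi, 4 rose and 4 fell (30.8% each way, beside 23.2% of all genes higher and 23.5% lower). Besides Rab34 and Rab6b, the decreases were in Rab1b and Rab2a, which serve traffic between the endoplasmic reticulum and the Golgi. Rab1b read 225, 216 and 211 CPM in control and 191, 192 and 194 CPM in miR182 samples (log2 fold change -0.18, adjusted p = 0.000208), and Rab1, the gene now named Rab1a, overlapped between groups (log2 fold change 0.06, adjusted p = 0.132). Rab6, now Rab6a, rose from 129 ± 3.37 to 143 ± 5.21 CPM (log2 fold change 0.15, adjusted p = 0.00181), with 708 exonic bases antisense to Mrpl48. The other increases were Rab30, Rab36 and Rab39b, all at or under 12.4 CPM on average; Rab30 did not pass without control replicate 1 or miR182 replicate 3, nor Rab36 without control replicate 2.

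In the late endosome and lysosome group, 3 of 4 passed, beside 46.7% of all genes. Rab7, the main Rab of late endosomes and lysosomes, fell from 36.3, 34.8 and 35.2 CPM to 29.4, 31.8 and 30.4 CPM (log2 fold change -0.22, adjusted p = 0.00248). Rab7l1, also named Rab29, rose (log2 fold change 0.23), as did Rab24 (log2 fold change 0.12), whose 2015 exonic bases include 1258 antisense to Prelid1 and which did not pass without control replicate 1, control replicate 2 or miR182 replicate 2. The lipid droplet Rab18 differed little: 171, 178 and 173 CPM in control against 189, 186 and 179 CPM in miR182 samples. These values did not overlap, but the change was 1.06-fold (log2 fold change 0.09 ± 0.03, adjusted p = 0.0266) and passed in only 2 of the 6 fits that left out a sample, those without control replicate 2 or miR182 replicate 3. Among the ciliary and other Rab genes, Rab40b and Rab20 fell and Rab40c and Rab23 rose, Rab23 passing only without control replicate 2 or miR182 replicate 3 when a sample was left out. The call for Rab20 (1.5 to 2.03 CPM on average) passed in 0 of those 6 fits.

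Levels can be compared between Rab genes only per transcript length, so RPKM, the CPM divided by the length in kilobases, was computed on the length of the principal GENCODE M21 transcript. On this scale the tested genes ran from 0.0726 RPKM (Rab44) to 114 RPKM (Rab1b) in control. The most abundant in control were Rab1b at 114, Rab5c at 101, Rab1 at 98.6 and Rab34 at 88.2 RPKM. In miR182 samples Rab1 at 103, Rab1b at 100 and Rab5c at 98.9 RPKM led, and Rab34 had moved from rank 4 to rank 11 at 35.4 RPKM. Its share of the summed Rab RPKM was 7.57 to 7.94% in control and 3.13 to 3.38% in miR182 samples. The summed Rab level was 1141 to 1153 RPKM in control and 1072 to 1087 RPKM in miR182 samples, so the sums did not overlap. These sums include the fall of Rab34 from 88.2 to 35.4 RPKM, while the median log2 fold change of the 49 tested genes was 0.04. The summed Rab CPM did not overlap either, at 2907 to 2956 in control and 2800 to 2843 in miR182 samples. The share of reads on Rab genes, given above, overlapped between the groups, but it lacks the library scaling used for CPM.

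**Figure D3:**
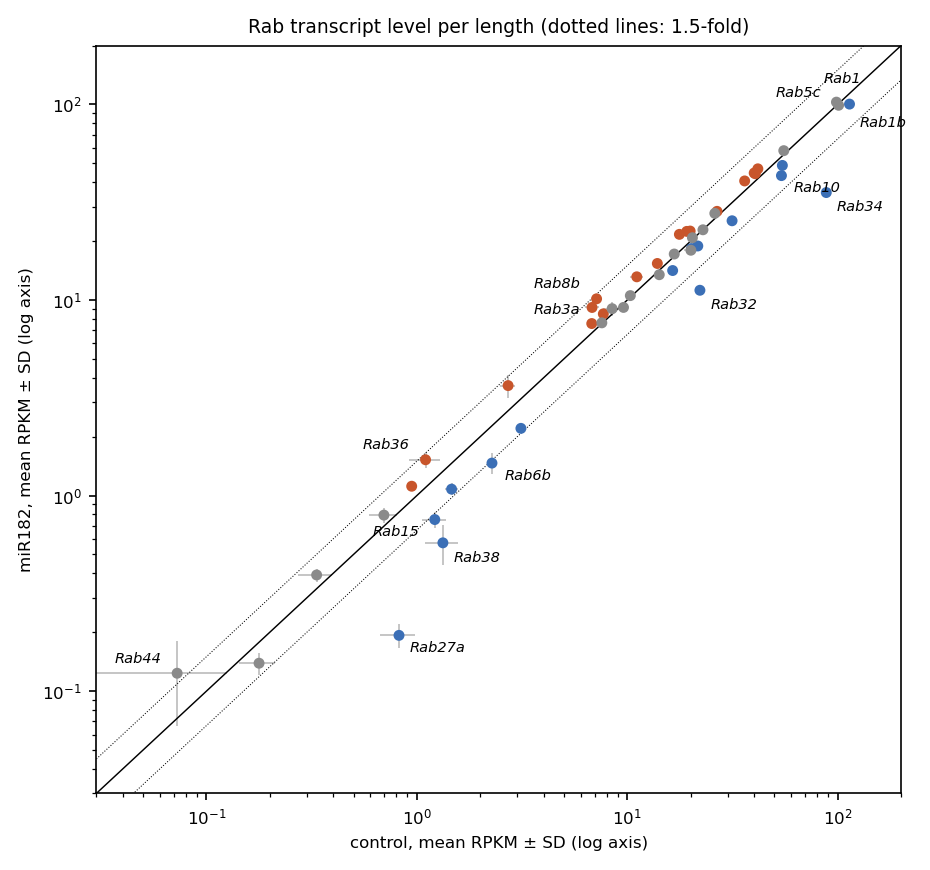
Mean RPKM of each tested Rab gene in control (horizontal) and miR182 samples (vertical), both axes logarithmic, with SD over 3 samples; orange and blue mark adjusted p under 0.05, higher and lower, and grey the rest. The solid line marks equal levels and the dotted lines 1.5-fold; Rab34 and Rab32 are the abundant genes that lie below the lower line.

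The balance between closely related Rab genes was compared by their ratio of RPKM in 15 paralog pairs, some of which share a member. In 12 pairs the ratios did not overlap between groups; the share over other gene pairs was not computed, and single genes alone did not overlap in 54.8% of cases. With 3 samples against 3, the two-sided exact permutation test cannot give a p below 0.1, and these 12 had that value. The Rab8b to Rab8a ratio rose from 0.428 ± 0.0134 to 0.590 ± 0.0197 (SD, n = 3). The Rab3a to Rab3d ratio rose from 0.314 ± 0.02 to 0.485 ± 0.0201. In the other direction, Rab27a to Rab27b fell from 4.63 ± 0.266 to 1.39 ± 0.0323, and Rab6b to Rab6 from 0.0568 ± 0.00398 to 0.0329 ± 0.0048. Rab27b had only 38, 27 and 30 reads in control and 24, 26 and 30 reads in miR182 samples. By edgeR it did not pass (adjusted p = 0.213). Both Rab27 genes were thus low, and the small SD of their ratio does not show how precise it is. Rab38 to Rab32, whose members fell together, overlapped between groups (0.0600 ± 0.0106 and 0.0512 ± 0.0125, exact p = 0.4).

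Seed matches were counted as a description, without a test. Of the 49 tested Rab genes, 18 (36.7%) had at least 1 match of 7 or 8 bases in the longest annotated 3′-UTR, beside 22.4% of the 12508 tested genes with an annotated 3′-UTR. The 3′-UTRs of the Rab genes were also longer, with a median of 1975 bases beside 1383. Of the 18 genes with a match, 10 fell, 6 rose and 2 did not pass; of the 31 without one, 5 fell, 11 rose and 15 did not pass. The median log2 fold change was -0.17 with a match and 0.09 without. Over all genes, 34.3% with a match and 21% without fell, and 19.4% and 25.2% rose. Genes with a match also had longer 3′-UTRs. The medians were 2397.5 bases with and 1550 without among the Rab genes, and 2586 and 1106 over all genes. The part of this length in the split was not tested.

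Among the few Rab genes of each class, the length of the match did not order the changes. All 4 with an 8-mer passed, and 3 of them fell (Rab6b, Rab10 and Rab1b) while Rab21, an endosomal Rab that also carries further 7-mers, rose (log2 fold change 0.15, adjusted p = 0.0179), though not past the threshold without control replicate 1 or miR182 replicate 1. The 8 genes with an m8 site as longest match split into 3 that fell, 4 that rose and 1 that did not pass. Of the 6 with only A1 sites, 4 fell, among them Rab34 and Rab32 with far larger decreases than any 8-mer gene. Over all genes with an 8-mer, an m8 site or an A1 site as longest match, 46.6%, 28.3% and 31.7% fell. In the same order, 13.6%, 22.2% and 20.5% of all genes rose. Rab27a and Rab38 fell without a match in this window. These are matches of letters in annotated 3′-UTRs, with no test of binding, and the 3′-UTR that these cells use was not measured.

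**Figure D4:**
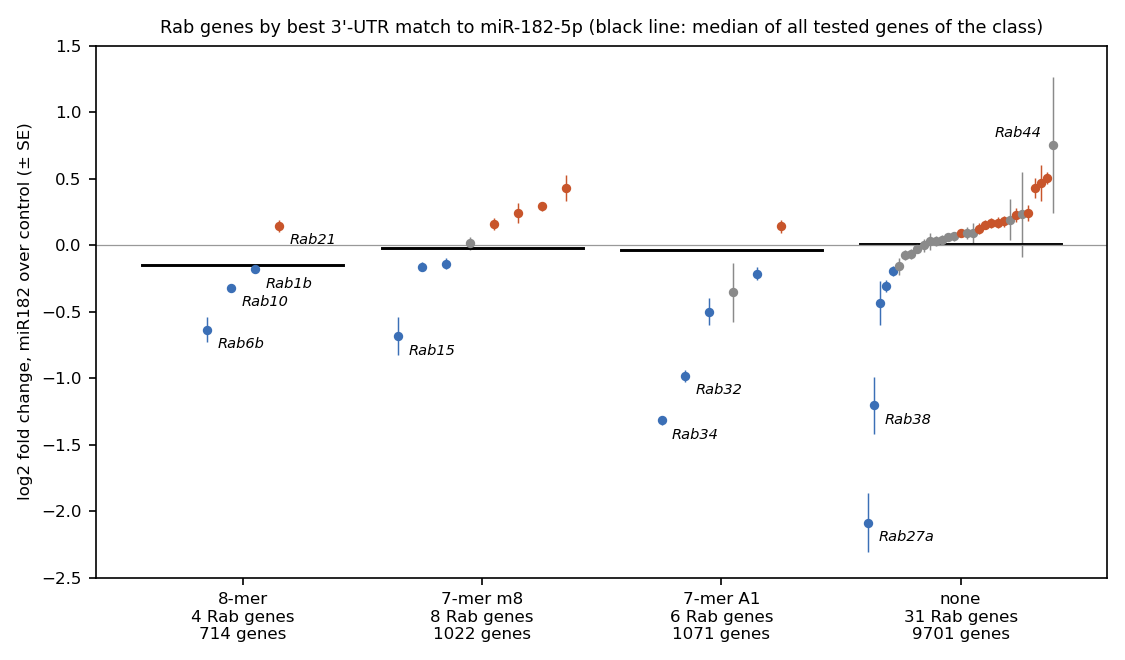
Log2 fold change (miR182 over control, with SE) of the 49 tested Rab genes by the longest match to the miR-182-5p seed in the 3′-UTR; orange and blue mark adjusted p under 0.05, higher and lower, and grey the rest. The black line is the median of all tested genes of that class, -0.15 for the 8-mer and 0.01 for no match; Rab34 and Rab32 lie lowest in the A1 class, and Rab27a and Rab38 lowest without a match.

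Of 35 tested exchange factors, which activate Rab proteins, 22 passed (62.9%, beside 46.7% of all genes), 14 higher (40%, beside 23.2%) and 8 lower (22.9%, beside 23.5%). Rab3ip, the exchange factor for Rab8 known as Rabin8, rose from 16.0, 16.2 and 15.9 CPM to 27.4, 26.2 and 25.3 CPM (log2 fold change 0.72 ± 0.056, adjusted p = 1.77e-07). It was the exchange factor with the largest increase. The similarly named Rab3il1, picked out after its values were seen, fell from 14.5 to 11.6 CPM (log2 fold change -0.32, adjusted p = 0.00162). Dennd2d, of the DENN family, fell at a low level, from 2.63, 4.21 and 3.29 CPM to 1.64, 1.44 and 1.95 CPM (log2 fold change -1.01 ± 0.19, adjusted p = 0.000606). Sbf1, a DENN protein with a phosphatase-like domain, rose from 124 to 164 CPM (log2 fold change 0.41, adjusted p = 4.71e-07). Exchange factors of Rab5, picked out after their values were seen, included Rin1 and Rin3, which rose (log2 fold changes 0.45 and 0.58), and Rin2, which fell (-0.14; not past the threshold without control replicate 2). Hps1 and Hps4, also picked out afterwards, together activate Rab32 and Rab38; Hps1 fell slightly (log2 fold change -0.15, adjusted p = 0.0182, not passing without control replicate 2) and Hps4 had a log2 fold change of 0.09 (adjusted p = 0.216).

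The GAPs that switch Rab proteins off passed at a share near that of all genes, 17 of 39 tested (43.6%, beside 46.7%). Of these, 7 were higher (17.9%, beside 23.2% of all genes) and 10 lower (25.6%, beside 23.5%). The number that reached 1.5-fold was 0 by edgeR, beside 7.45% of all genes. It was also 0 by DESeq2 and limma-voom, and with the unadjusted p. Tbc1d21, at 1.53 CPM in control and noticed after its values were seen, reached 1.5-fold without control replicate 1 or miR182 replicate 2. Only 11 GAPs passed with DESeq2, or without miR182 replicate 3. Tbc1d4, the Akt substrate that restrains GLUT4 delivery through Rab10, read 64.1, 71.6 and 68.6 CPM in control and 62.0, 69.4 and 74.4 CPM in miR182 samples. The groups overlapped, and the log2 fold change was 0.01 ± 0.059 (adjusted p = 0.907). Its close relative Tbc1d1 rose from 43.8, 44.7 and 47.3 CPM to 57.9, 55.0 and 54.9 CPM (log2 fold change 0.31, adjusted p = 6.34e-05). Tbc1d2b, an endosomal GAP, fell the most among the abundant GAPs, from 249, 245 and 255 CPM to 178, 184 and 183 CPM (log2 fold change -0.46, adjusted p = 1.5e-08). Evi5, a GAP of the Rab11 pathway, fell (log2 fold change -0.32, adjusted p = 1.82e-05), and Tbc1d8b rose (log2 fold change 0.35, adjusted p = 2.86e-05).

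Of the 7 genes for prenylation and membrane extraction, 5 passed (71.4%, beside 46.7% of all genes), all with small changes. By edgeR 0 of the 7 reached 1.5-fold, beside 7.45% of all genes. The count was also 0 by DESeq2 and limma-voom, and with the unadjusted p. Rabggtb, a subunit of the enzyme that prenylates Rab proteins, rose from 52.6 to 60.5 CPM (log2 fold change 0.20, adjusted p = 0.000846). Rabac1, which helps Rab proteins reach their membranes, fell from 127 to 113 CPM (log2 fold change -0.17, adjusted p = 0.000489).

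Of 42 effectors tested, the proteins that GTP-loaded Rabs recruit, 24 passed (57.1%, beside 46.7% of all genes), 14 higher (33.3%, beside 23.2%) and 10 lower (23.8%, beside 23.5%). The 3 past 1.5-fold (7.14%, beside 7.45% of all genes) were lower, as were 719 of the 977 genes past it overall. Rilpl2, a protein of the RILP family that acts at cilia and lysosomes, fell from 36.2, 35 and 33.4 CPM to 20.6, 18.4 and 19.8 CPM (log2 fold change -0.83 ± 0.057, adjusted p = 4.24e-08). Its relatives Rilpl1 and Rilp, picked out after their values were seen, also fell (log2 fold changes -0.53 and -0.46). The other called effectors were Sytl1 and Mlph, which bind Rab27a. Both were under 1 CPM in every sample, at log2 fold changes of -1.34 ± 0.37 and -0.83 ± 0.29 (adjusted p = 0.00777 and 0.0308), and Mlph passed in only 1 of the 6 fits that left out a sample, the one without control replicate 3. Of the other Rab27 effectors on the list that were tested, also picked out afterwards, Sytl2 and Sytl5 rose (log2 fold changes 0.58 and 0.52), Sytl5 not passing without control replicate 2 or 3. Sytl4, Myrip and Unc13d did not pass (log2 fold changes 0.07, 0.01 and 0.09, adjusted p = 0.488, 0.953 and 0.829).

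Of 4 tested Rab-like GTPases outside the name rule, 3 passed (beside 46.7% of all genes), each by less than 1.5-fold. Rabl3 and the ciliary Ift27 fell (log2 fold changes -0.37 and -0.22, adjusted p = 0.00641 and 0.00467), and Rabl5, also a ciliary transport subunit, rose (log2 fold change 0.38, adjusted p = 0.00119).

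**Figure D5:**
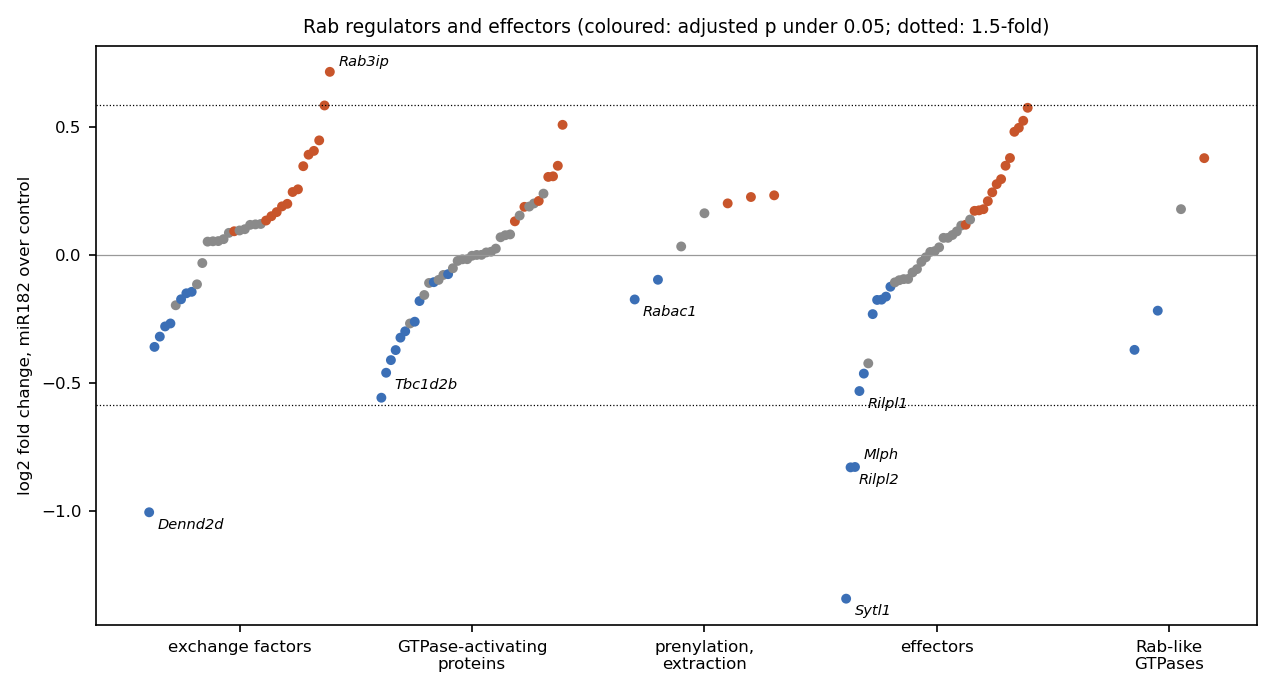
Log2 fold change (miR182 over control) of each tested gene in 5 lists of Rab regulators and effectors; orange and blue mark adjusted p under 0.05, higher and lower, grey the rest, and the dotted lines 1.5-fold. The labelled points beyond the dotted lines are Rab3ip, higher, and Dennd2d, Rilpl2, Mlph and Sytl1, lower; the GAPs and the prenylation and extraction genes stay between the lines.

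Cell type markers moved between the groups as well. Of 9 adipocyte markers 6 fell (66.7%, beside 23.5% of all genes) and 1 (Lep) rose. The summed level of the 9 was 6605 to 6960 CPM in control and 4569 to 5176 CPM in miR182 samples. Of 6 stromal markers tested, 5 fell (83.3%, beside 23.5% of all genes), and the sum of the 7 listed was 19803 to 20880 CPM against 18816 to 19636 CPM. Most of this sum was Col1a1 (19248 and 18643 CPM on average), which did not pass (adjusted p = 0.378). Pdgfra, Cd34 and Pi16 fell by more than 1.5-fold. Endothelial markers summed to 8.68 to 9.92 CPM against 5.35 to 6.06 CPM, with 3 of 5 under 1 CPM throughout, and Tek was the only 1 of the 4 tested that passed (6.05 to 2.43 CPM). Muscle markers summed to 43.4 to 44.7 CPM against 53.9 to 57.5 CPM, with Myod1 and Ckm at 0, and Acta1 was the only 1 of the 3 tested that passed (18.5 to 30.5 CPM). Macrophage markers summed to 12.6 to 14.3 CPM against 11.6 to 14.3 CPM, with 4 of 7 under 1 CPM. Lyz2 was the only 1 of the 3 tested that passed (1.24 to 0.795 CPM), and it passed in 2 of the 6 fits that left out a sample. The 4 lymphoid markers summed to at most 0.383 CPM in any sample. In bulk samples fewer cells of a type and less RNA per cell cannot be told apart, and the part of these shifts in the Rab values was not tested.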

How the data were processed

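Each of the 6 samples, 3 control and 3 miR182, had 1 deposited table of raw read counts per gene symbol. Per the labels, the authors used bcl2fastq, TopHat2 and HTSeq with build mm9; versions, annotation and strand setting are not given in the sources used here, so reads of overlapping or antisense genes are uncertain. The 5 tally lines of each table were left out (reads on no gene were 12.73 to 13.02% of uniquely placed reads). Genes were filtered with filterByExpr (minimum count 10) and tested with the edgeR 4.0.16 quasi-likelihood test in R 4.3.3, with TMM factors, group alone as term, both sides, and Benjamini-Hochberg adjustment over all 13117 genes. The 1.5-fold threshold is the one the study used. CPM use TMM-scaled library sizes. RPKM lengths, coordinates and 3′-UTRs come from GENCODE M21 (GRCm38), to which 57 of 57 Rab symbols and 22142 of 22609 listed symbols were matched by name, and the miRNA from RefSeq. No coordinates were converted from mm9. On simulated counts for this comparison (13117 genes), 181 of 200 genes given a log2 change of 1 were recovered, with 6 false calls. In the data 46.7% of genes passed and most Rab changes were smaller, so these figures do not give the recovery or false calls there.

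Named genes are the Rab genes past 1.5-fold, the 5 with the smallest p in each direction, Rab genes known from adipocyte traffic, and in each list of regulators those past 1.5-fold or, if fewer than 3, the smallest p up to 3, plus Tbc1d4 and Tbc1d1; 1 gene that this rule names is not reported here. Others are said to have been chosen after their values were seen. The members, role groups and lists were chosen with earlier results of these data known. Depth was 25869810 to 28796712 reads on genes per sample. The 13 alternatives were DESeq2 1.42.0, limma-voom (limma 3.58.1), edgeR with either DESeq2 size factors or upper-quartile scaling, testing without the filter, a stricter filter (10 or more counts in all samples), a replicate block, and leaving out each sample.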

Additional observations from a re-analysis of the deposited data

How the results depend on the processing

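The 6 Rab genes past 1.5-fold were the same 6 in all 7 alternatives that kept every sample, and 5 to 6 of them when 1 sample was left out. The 32 Rab genes with an adjusted p under 0.05 became 28 with DESeq2 and 25 to 30 when 1 sample was left out; the 17 increases became 11 to 16, with 11 without control replicate 1. The 17 GAPs became 11 with DESeq2 and 11 to 14 when 1 sample was left out. With the replicate number as a replicate block, 31 Rab genes passed, all but Rab20. Of the regulators and effectors picked by the rule for named genes, Mlph no longer passed. With DESeq2, Rab20, Rab23, Rab24, Rab30 and, of the same regulators and effectors, Mlph no longer passed. Samples with the same number did not deviate together (correlations of -0.18 to -0.0424, against a mean of 0.0492 between different numbers). This gave no sign that the numbers pair the samples. With 3 samples a group, it cannot exclude a shared preparation. The 66 genes compared next were all tested Rab genes and the regulators and effectors picked by the rule for named genes. Over these and 13 alternatives, 804 values kept their direction and side of the threshold, 42 no longer passed, 3 newly passed and 6 changed sign. The 6 were log2 fold changes near 0 of genes that did not pass before or after: with 1 sample left out, Rab4a ran from -0.016 to 0.0541, Rab9 from -0.0203 to 0.0293 and Tbc1d4 from -0.0494 to 0.0798, and Tbc1d4 was -0.00209 with upper-quartile factors. The cause of these differences was not tested. Rab33a and Rab44 were below the filter of 0.379 CPM in some sample, and at that depth the standard error of the Rab44 log2 fold change was 0.51.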
